A study of Homo sapiens with 4 samples.

Results

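Gene expression in CD31+CD34+ cells, a population described as hemogenic endothelial progenitors (HEPs), was compared with that of the undifferentiated induced pluripotent stem cell (iPSC) line from which they were derived. The genes were taken by rule: values of 1 gene identifier were summed, and a gene was kept when it had 1 FPKM or more in BC1 or in CD31+CD34+ (FPKM, the fragments of a gene divided by its transcript length in kilobases and by the mapped fragments of the library in units of 1000000). This kept 15915 of 58274 gene identifiers, and 2 of the 4 libraries of the series entered the comparison itself. BC1 is a human iPSC line, and the BC1 library was made from undifferentiated cells. The CD31+CD34+ library came from BC1 cells collected at day 5 of hematopoietic differentiation, after 2 days with activin A and BMP4 followed by VEGF and bFGF. A library of APLNR+ cells from day 2 of the same protocol was used to ask how early each difference had appeared, and a library of CD43+ cells from day 8 did not enter the comparison. All populations came from the 1 line BC1, and the labels of the CD31+CD34+ cells name no gate on other surface markers. Each population had 1 library, so no difference given here has a replicate check, no test was possible and p-values are not given.

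Pluripotent stem cells form an epithelium that is held together by E-cadherin and governed by a small circuit of transcription factors around OCT4, SOX2 and NANOG. On the way to blood they first become mesoderm and then endothelium, a flat cell layer that is joined by VE-cadherin and depends on VEGF receptors and on ETS, GATA and SOX family factors. A subset of this endothelium, called hemogenic, switches on blood transcription factors such as RUNX1 and later rounds up into blood cells.

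The depth recovered from the values was 19700000 mapped fragments in BC1, 21400000 in APLNR+ and 23600000 in CD31+CD34+. For a transcript of 2000 bases, 1 FPKM corresponded to 34.3 BC1 fragments, with a counting error of 17.1%, and to 40.6 CD31+CD34+ fragments, an error of 15.7%. Of the kept genes, 12548 had 1 FPKM or more in both libraries, 1787 in BC1 alone and 1580 in CD31+CD34+ alone. Differences are given on the log2(FPKM + 1) scale, which understates the change of genes with low values. The net difference is CD31+CD34+ minus BC1, and a gene is said to have risen or fallen when its net difference was 2 or more in size. Folds are ratios of the deposited FPKM values, with exact 95% intervals from approximate fragment numbers that cover counting error only. Where the lower library held 3 fragments or fewer, the fold was computed against 3 fragments and is given as "at least". Such a fold is a floor for the ratio of the listed values and does not cover counting error. The 95% interval can start lower, for PECAM1 at 95.1-fold. Unless said otherwise, 3 values of a gene are given in the order BC1, APLNR+ and CD31+CD34+.

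The genes of the sorted proteins and the markers of the 2 cell states were examined to check the labels. PECAM1, which encodes the junction protein CD31 (chromosome 17, 64319415 to 64413776), was at 0.303, 0.46 and 93.1 FPKM, and was at least 279-fold higher in CD31+CD34+ than in BC1. CD34 (chromosome 1, 207880972 to 207911402), which encodes the sialomucin CD34, was at 0.236, 0.645 and 102 FPKM and was 433-fold (95% interval 251 to 848) higher. Both values follow from the sort and check the label, and neither counts as a finding. The epithelial genes went the other way. CDH1, the gene of E-cadherin (chromosome 16, 68737225 to 68835548), was at 70.9, 5.14 and 0.178 FPKM, which was 399-fold (95% interval 228 to 732) lower in CD31+CD34+. EPCAM, an epithelial adhesion molecule (chromosome 2, 47345158 to 47387601), was at 81.8, 3.51 and 2.01 FPKM and was 40.6-fold (95% interval 31.6 to 53.96) lower. The remaining endothelial markers CDH5, KDR, TEK and TIE1 were at 224, 569, 82.5 and 226 FPKM in CD31+CD34+. The values thus went with the label of the library. In a bulk library, a smaller share of cells that hold a transcript and less of it in each cell cannot be told apart.

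In all, 933 genes rose (5.86% of the genes kept) and 717 fell (4.51%), and the median net difference over all kept genes was 0.04. A gene listed at 10 FPKM or more in CD31+CD34+ and under 0.5 FPKM in BC1 was found 152 times, and the reverse 123 times. Of the 13339 protein-coding genes kept, 824 rose and 571 fell, and of the 1454 long noncoding genes 69 rose and 83 fell. The largest rise among the 15915 genes was that of PLVAP, which encodes the protein of the diaphragms of endothelial fenestrae and caveolae, from 2.52 to 1449.5 FPKM (net difference 8.69). The largest fall was that of POU5F1, the gene of OCT4, from 1997 to 1.87 FPKM (net difference -9.45). MARK4, from 30.9 to 127 FPKM, lay just inside the difference of 2, and FBN1, from 1.18 to 7.699 FPKM, just outside. On the other side SLC4A3, from 4.51 to 0.375 FPKM, lay just inside and ITPK1, from 127 to 31.1 FPKM, just outside.

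**Figure D1:**
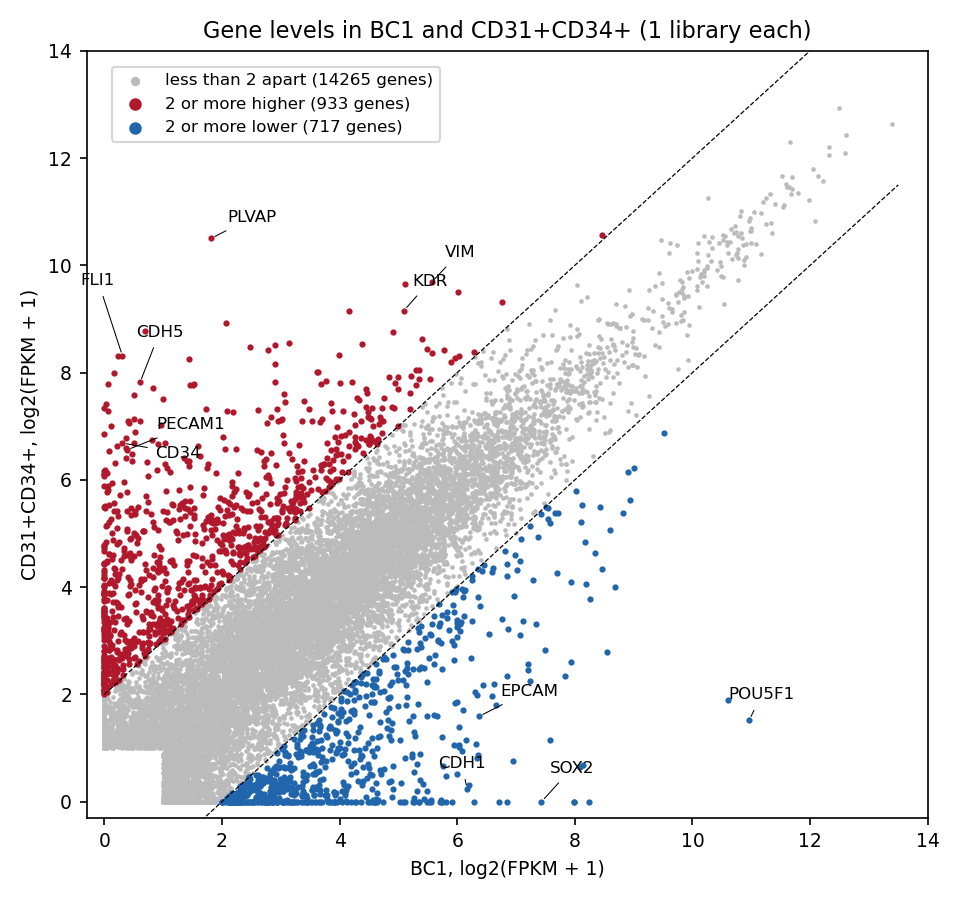
Level of each of the 15915 kept genes in BC1 (horizontal axis) and CD31+CD34+ (vertical axis), both as log2(FPKM + 1), 1 library each. Dashed lines mark a difference of 2. The 933 risen genes are red and the 717 fallen genes blue, with PLVAP, FLI1, KDR, CDH5, PECAM1, CD34 and VIM far above the diagonal and POU5F1, SOX2, CDH1 and EPCAM far below it.

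Each change was then set against the APLNR+ library. A change was called already present when APLNR+ differed from BC1 by 1 or more in the same direction, absent when it differed by less than 1 and opposite when it differed by 1 or more the other way. A gene called absent in APLNR+ is thus one whose change was absent there, whatever its level. BC1 is shared by both differences, so these classes are counts and their sizes carry no test. A larger share of the losses than of the gains was already present at day 2. Of the 717 fallen genes, 485 (67.6%) were already lower in APLNR+, 212 (29.6%) were absent there and 20 (2.79%) were opposite. Of the 933 risen genes, 350 (37.5%) were already higher in APLNR+, 547 (58.6%) were absent and 36 (3.86%) opposite. The share of the net difference that APLNR+ had reached had a median of 57.5% over the fallen genes, with quartiles of 26.8% and 85.9%. Over the risen genes the median was 18.2%, with quartiles of 0.0% and 53.2%. The share already present was larger for fallen than for risen genes under each of the 13 settings computed, the main one included. One of these settings, without the filter, could not alter the shares, because a gene under 1 FPKM in both libraries cannot reach a difference of 2. Taking the highest row of an identifier in place of the sum left both shares unchanged.

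Early changes were divided by what followed. Among the 485 early losses, 311 kept the level of APLNR+ within 1, 168 fell by 1 or more beyond it and 6 partly returned. Among the 350 early gains, 147 kept the level, 169 rose by 1 or more beyond it and 34 partly returned. This split depends on the limit and the pseudocount. With a limit of 0.5, 181 early losses kept the level and 386 fell further, and 75 early gains kept it and 366 rose further. With a limit of 2, 267 losses kept it and 15 fell further, and 126 gains kept it and 23 rose further. With a pseudocount of 0.1, 497 losses kept it and 513 fell further, and 287 gains kept it and 410 rose further. Genes that were switched on fully, from under 0.5 FPKM in BC1 to 10 FPKM or more, were still under 0.5 FPKM in APLNR+ in 69 of 152 cases. Of the 123 genes switched off in the same sense, 38 were already under 0.5 FPKM in APLNR+ and 13 were still at 10 FPKM or more.

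**Figure D2:**
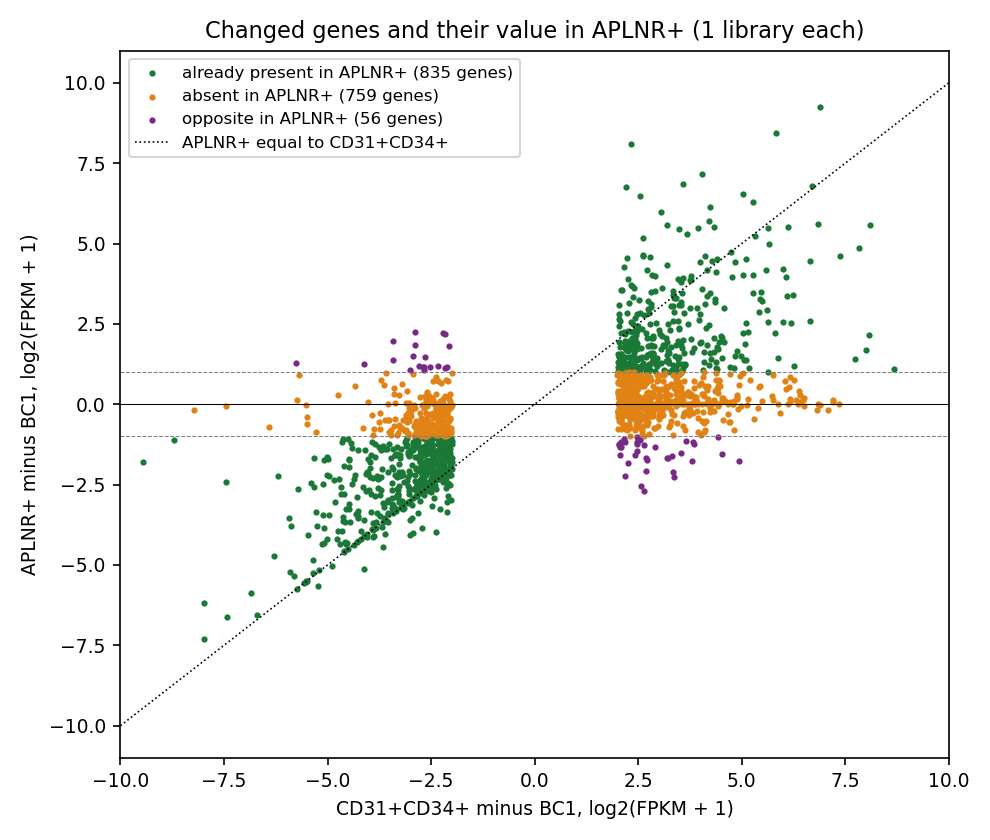
Difference of APLNR+ from BC1 (vertical axis) against that of CD31+CD34+ from BC1 (horizontal axis) for the 1650 changed genes, both in log2(FPKM + 1). Dashed lines at 1 and -1 separate 835 changes already present (green), 759 absent (orange) and 56 opposite (purple), and on the dotted line APLNR+ equals CD31+CD34+. Most fallen genes lie below the lower dashed line, whereas most risen genes lie between the lines.

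The endothelial transcription factors were examined first among the gained genes. Of 23 factors, 18 rose and none fell, and the median net difference of the 23 was 4.35, against 0.04 over all kept genes. The list, like those below, was drawn up with results of these data known. FLI1, an ETS factor of endothelium and blood (chromosome 11, 128686535 to 128813267), was at 0.238, 2.95 and 316 FPKM, and was 1326-fold (95% interval 823 to 2264) higher in CD31+CD34+ than in BC1. GATA2, a GATA factor needed for blood stem cells, was at 0.125, 32.03 and 254 FPKM. Both were already higher in APLNR+ and rose further. Other factors were gained after APLNR+. TAL1, the partner of GATA and LMO2 proteins on DNA, was listed at 0, 0.0608 and 71.2 FPKM. LMO2 itself was at 0.756, 0.459 and 107 FPKM. The ETS factor ERG was at 1.72, 0.543 and 75.1 FPKM, and KLF2, a factor that responds to blood flow, was at 0.202, 0.796 and 51.4 FPKM. The gains of TAL1, LMO2, ERG and KLF2 were all absent in APLNR+.

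The SOX factors of endothelium followed different courses. SOX18 (0.411, 7.45 and 139.97 FPKM) rose in both steps, SOX7 (0.292, 1.16 and 84.5 FPKM) rose after APLNR+, and SOX17 (0.171, 16.6 and 11.8 FPKM), which also marks definitive endoderm, was already at its higher level in APLNR+. In total, 10 of the 18 risen factors were already higher in APLNR+ and 8 were absent there. TBX3, a T-box factor, was at 0.354, 68.98 and 23.9 FPKM and was the only one of the 10 that partly returned. Factors of the venous and arterial programs were both present: NR2F2, which specifies veins, was at 0.0506, 0.211 and 23.4 FPKM, and MECOM, linked to arterial and blood stem cell programs, was at 0.0728, 0.193 and 7.64 FPKM. The 5 factors that did not reach the difference of 2 were HLX, EPAS1, ETV6, ETV2 and ETS2. ETV2, an early ETS factor that precedes FLI1 and ERG in development, was at 1.105, 1.35 and 2.64 FPKM, and the homeobox factor HLX was at 0.391, 34.6 and 4.32 FPKM, highest in APLNR+.

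Receptors and ligands of the vessel wall came next. Of 25, 15 rose and none fell, 5 already in APLNR+, 7 absent there and 3 opposite. KDR, the main VEGF receptor, was at 33.1, 69.96 and 569 FPKM and was 17.2-fold (95% interval 16.6 to 17.8) higher in CD31+CD34+ than in BC1. Its value in undifferentiated cells was therefore well above the floor. FLT4, the receptor of VEGF-C, was at 7.34, 4.91 and 193 FPKM, and the VEGF co-receptors NRP1 and NRP2 were at 0.374, 21.1 and 43.8 FPKM and 11.4, 120.3 and 256 FPKM. ACVRL1, the endothelial BMP9 receptor ALK1, was at 0.391, 2.799 and 81.2 FPKM and its partner ENG at 2.35, 3.94 and 74.04 FPKM. APLNR, the sorting marker of day 2, was at 0.782, 1073 and 209 FPKM, so its gain had partly returned by day 5. Its ligand APLN was at 0.569, 0.174 and 7.92 FPKM.

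The 3 opposite genes were receptors. A risen gene can be opposite only with 1 FPKM or more in BC1, so their measurable levels there follow from the class. TIE1, an orphan receptor that modulates angiopoietin signalling (chromosome 1, 43300993 to 43323108), was at 6.44, 1.17 and 226 FPKM, a difference of -1.78 from BC1 to APLNR+ and of 6.71 from APLNR+ to CD31+CD34+. TEK, the angiopoietin receptor, was at 8.14, 1.85 and 82.5 FPKM, and FLT1, a VEGF receptor that also acts as a decoy, was at 21.7, 9.65 and 100.3 FPKM. The ligands VEGFA (17.7, 34.7 and 23.3 FPKM), VEGFB (11.6, 37.1 and 24.8 FPKM) and PGF (3.03, 17.3 and 11.2 FPKM) did not reach a difference of 2. ANGPT1, ANGPT2, VEGFC, EDNRB and CXCR4 were below 1 FPKM in both BC1 and CD31+CD34+ and were not kept.

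Junction and adhesion genes of endothelium were gained mostly after day 2. Of 18, 14 rose and none fell, and 12 of the 14 were absent in APLNR+. CDH5, the gene of VE-cadherin (chromosome 16, 66366622 to 66404786), was at 0.523, 0.663 and 224 FPKM and was 429-fold (95% interval 262 to 746) higher in CD31+CD34+ than in BC1. ESAM, an adhesion molecule of endothelial tight junctions, was at 0.162, 0.416 and 97.99 FPKM and was at least 207-fold higher. ICAM2, which binds leukocytes, was at 0.00917, 0.814 and 71.9 FPKM and was at least 389-fold higher. CD93 (0.165, 0.354 and 33.5 FPKM) and CLEC14A (0.0759, 0.349 and 13.7 FPKM), lectin-like proteins of the endothelial surface, followed the same course. The selectins SELE and SELP, which capture leukocytes on activated endothelium, reached 10.8 and 7.96 FPKM. MCAM, which is also found on mesoderm, was at 6.396, 18.1 and 37.99 FPKM and was the only risen member already higher in APLNR+. ECSCR, a regulator of endothelial migration, was at 3.14, 0.422 and 94.9 FPKM, lower in APLNR+ than in BC1. CLDN5, a claudin of tight vessels, was at 0.774, 1.26 and 2.94 FPKM and ICAM1 at 1.13, 1.88 and 2.78 FPKM. JAM2, a junctional adhesion molecule, was at 2.27, 0.738 and 0.296 FPKM and so was 7.66-fold (95% interval 5.16 to 12.1) lower in CD31+CD34+ than in BC1. None of these 3 passed the difference of 2. VCAM1 was below 1 FPKM in both libraries.

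**Figure D3:**
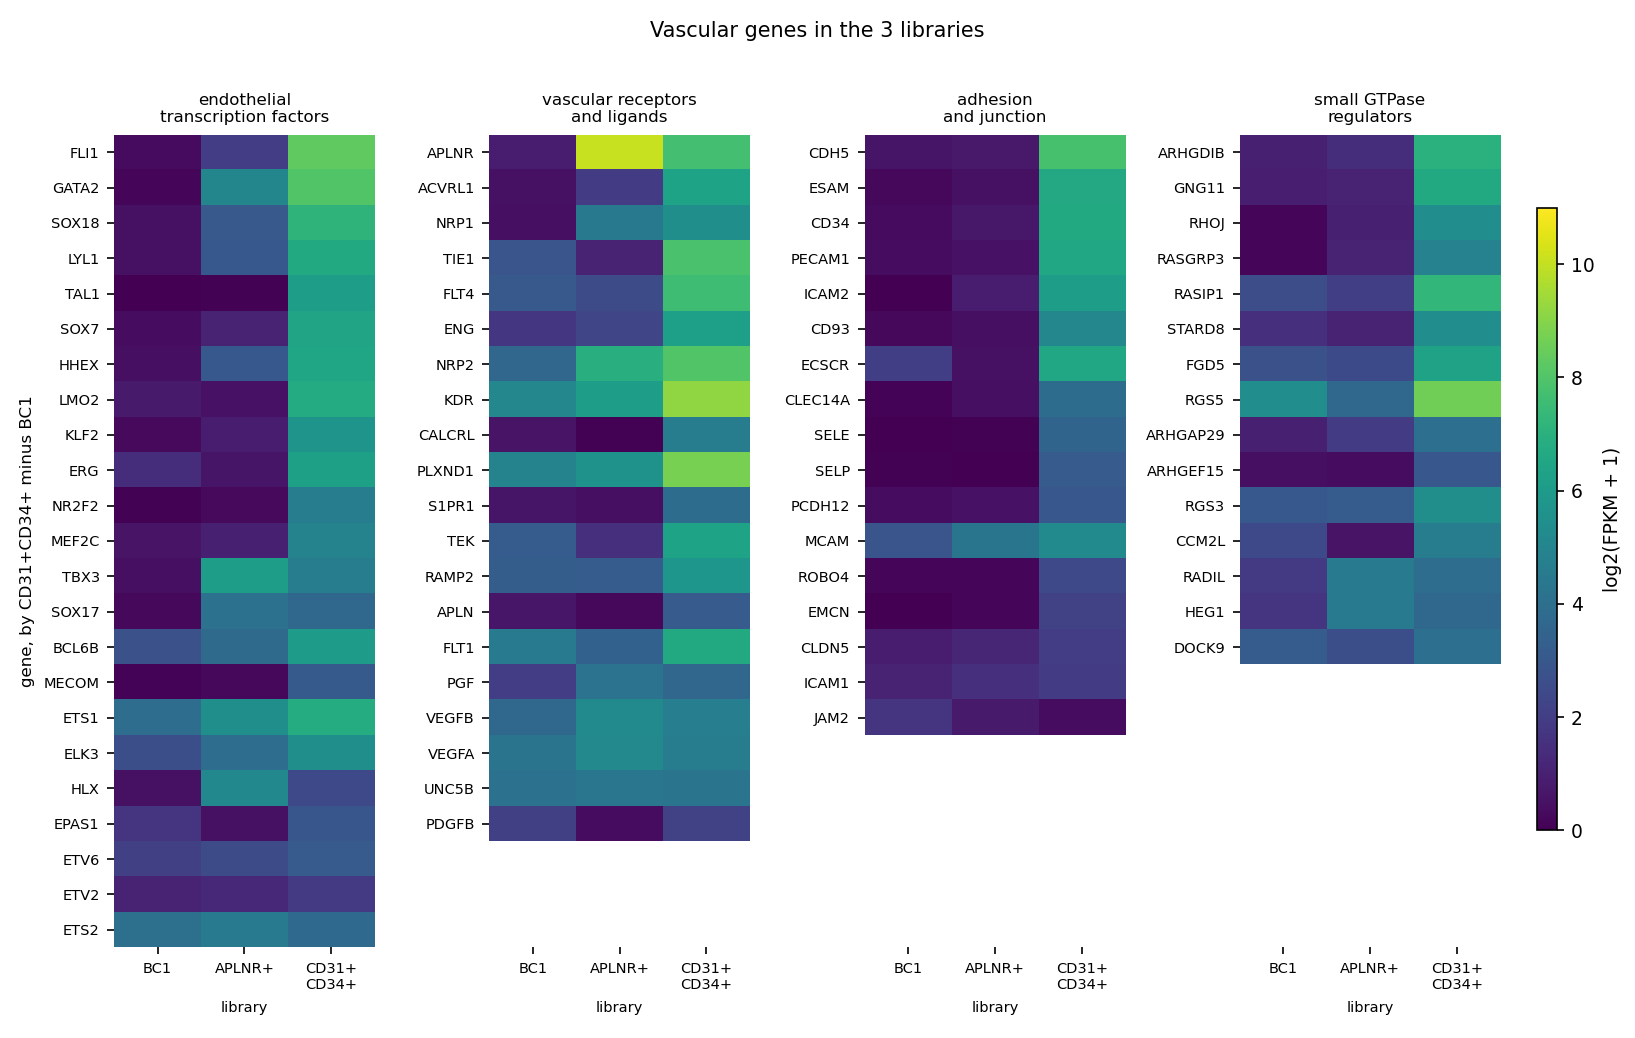
Level of vascular genes in BC1, APLNR+ and CD31+CD34+ (columns of each block, 1 library each) as log2(FPKM + 1), for the kept members of 4 lists, ordered by net difference. In the adhesion and junction block the APLNR+ column resembles that of BC1 for most genes, whereas several transcription factors (GATA2, TBX3, SOX17, HLX) and receptors (APLNR, NRP1, NRP2) are already bright in APLNR+.

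Upstream sequences of a receptor and of the gene with the largest rise are shown, since both genes rose together with the ETS factors. The letters are the 250 bases before the RefSeq start (GRCh38.p14), written 5′ to 3′ on the strand of the gene, with capitals at GGAA and its reverse complement TTCC, the core recognised by ETS factors. TIE1 (chr1:43300732-43300981, plus strand) holds 4 of these cores, and PLVAP (chr19:17377343-17377592, minus strand) also holds 4.
TIE1: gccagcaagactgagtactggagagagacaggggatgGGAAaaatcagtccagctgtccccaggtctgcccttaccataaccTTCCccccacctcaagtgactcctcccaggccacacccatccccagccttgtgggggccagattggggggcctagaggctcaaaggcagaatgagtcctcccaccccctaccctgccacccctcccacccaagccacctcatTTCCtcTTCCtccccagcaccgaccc
PLVAP: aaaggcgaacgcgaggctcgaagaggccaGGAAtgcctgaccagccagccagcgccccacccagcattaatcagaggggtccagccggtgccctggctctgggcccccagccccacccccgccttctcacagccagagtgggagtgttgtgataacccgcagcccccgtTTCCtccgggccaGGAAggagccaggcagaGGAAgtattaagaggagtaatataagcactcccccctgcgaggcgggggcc
A core this short is common. Over the same span of all 27305 RefSeq windows, 92.8% held at least 1 core, the median was 3, and the central 95% ran from 0 to 7. The match is a description of letters and not of binding. PLVAP was added after its value was seen. No windows were held for PECAM1, CDH5, POU5F1 and CDH1. The CD34 window lay within the first exon of the GENCODE gene and is not printed. Longer motifs were counted as well, but their shares in risen and fallen genes are not given. A window was found for only 64.8% of the risen and 58.6% of the fallen genes.

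A list of endothelial genes linked to small GTPases and to G protein signalling rose nearly throughout. Of 15, 14 rose and none fell, 10 of them absent in APLNR+. ARHGDIB, a GDP dissociation inhibitor of small GTPases, was at 0.94, 1.68 and 129 FPKM, and RHOJ, a small GTPase of endothelium, at 0.161, 0.979 and 41.6 FPKM. RASIP1, needed for vessel lumens, was at 5.12, 3.15 and 156 FPKM, and FGD5, an activator of CDC42, at 5.57, 4.51 and 80.6 FPKM. RGS5, a regulator of G protein signalling known from pericytes, was at 41.4, 12.3 and 393 FPKM and CCM2L at 4.34, 0.502 and 24.6 FPKM, both lower in APLNR+ than in BC1. A shorter antisense identifier with the symbol RGS5 overlaps that gene and is not included in its value. HEG1 (2.16, 21.4 and 11.9 FPKM) and RADIL (2.66, 22.3 and 14.2 FPKM) were already at their higher level in APLNR+.

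Of 16 genes of caveolae, transcytosis and scavenging, 9 rose and none fell. PLVAP was 575-fold (95% interval 361 to 964) higher in CD31+CD34+ than in BC1, from a level in APLNR+ of 6.499 FPKM. STAB1, the scavenger receptor of sinusoidal endothelium, was at 0.516, 0.466 and 136 FPKM, and MRC1, a mannose receptor of sinusoids and macrophages, was at 0.103, 0.0944 and 13.8 FPKM. The components of caveolae did not move together. CAVIN1 was at 15.03, 3.76 and 222 FPKM and CAVIN2 at 0.0684, 0.0942 and 7.51 FPKM, whereas the structural protein CAV1 was at 8.96, 0.523 and 4.75 FPKM and CAV2 at 1.04, 0.547 and 6.03 FPKM, neither past the difference of 2. LYVE1 and STAB2, markers of lymphatic or sinusoidal endothelium, were below 1 FPKM in both libraries.

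Genes of vessel tone and clotting were also gained mostly after APLNR+. Of 16, 11 rose and 1 fell, and 9 of the 11 were absent there. TFPI, which inhibits tissue factor, was at 1.701, 1.403 and 304 FPKM and was 179-fold (95% interval 112 to 308) higher in CD31+CD34+ than in BC1. VWF, which tethers platelets, was at 0.335, 0.484 and 13.7 FPKM, and THBD, the thrombin receptor thrombomodulin, at 0.172, 0.121 and 11.5 FPKM. NOS3, the endothelial nitric oxide synthase, was at 5.06, 8.16 and 93.7 FPKM, and ACE, the angiotensin-converting enzyme, at 1.59, 2.06 and 43.4 FPKM. EGFL7, a secreted endothelial factor, was already at 33.7 FPKM in BC1 and reached 800.1 FPKM. The member that fell was PTGIS, the prostacyclin synthase, at 12.01, 6.15 and 0.791 FPKM.

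Of 17 genes of the vascular basement membrane, 4 rose and none fell, beside 5.86% risen and 4.51% fallen over all kept genes. The risen members were COL4A1 (15.7, 19.3 and 80.9 FPKM), COL4A2 (25.5, 39.6 and 161 FPKM), NID1 (12.4, 13.2 and 77.3 FPKM) and NID2 (3.94, 2.43 and 19.3 FPKM). These are the type IV collagen chains and the nidogens that link collagen to laminin. All 4 were expressed in APLNR+, within 1 of their level in BC1, so their change was absent there. The laminin chains did not pass the difference, with LAMB1 at 18.3, 44.2 and 58.5 FPKM, LAMC1 at 27.5, 19.3 and 48.6 FPKM and LAMA5 at 125, 52.8 and 117 FPKM. FN1, the gene of fibronectin, was at 23.6, 68.4 and 90.6 FPKM with a net difference of 1.89.

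The Notch pathway, which sets arterial fate and the emergence of blood from endothelium, rose in part. Of 19 members 7 rose and none fell, beside 5.86% risen and 4.51% fallen over all kept genes. The median net difference was 0.72 over all 19 and 1.08 over the 18 kept. DLL4, the ligand of arterial endothelium, was at 0.131, 0.42 and 17.97 FPKM, and the receptor NOTCH1 was at 22.7, 13.8 and 128 FPKM. The modifying enzyme MFNG was at 1.74, 0.363 and 57.7 FPKM and the ligand JAG2 at 5.66, 1.803 and 26.2 FPKM, both lower in APLNR+ than in BC1. Of the target genes, HES4 was at 3.71, 6.26 and 45.03 FPKM, HEY1 at 0.849, 1.32 and 6.695 FPKM and HES1 at 4.81, 21.2 and 25.6 FPKM, the last already in APLNR+. NOTCH4, which is known from endothelium, was at 0.243, 0.0747 and 3.42 FPKM with a net difference of 1.83, and DLL3 was high in APLNR+ alone (7.17, 137 and 4.33 FPKM).

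The blood program was present in the CD31+CD34+ library at the level of its regulators and, in part, of its surface proteins. Of 20 hematopoietic transcription factors, 14 rose and 1 fell, 6 of the 14 already higher in APLNR+. RUNX1, the factor that drives the transition from endothelium to blood, was at 0.0962, 4.15 and 60.1 FPKM and was at least 525-fold higher in CD31+CD34+ than in BC1. GFI1 (0.0209, 0.0958 and 27.9 FPKM) and GFI1B (0.0552, 0.0338 and 35.9 FPKM), repressors that silence endothelial genes during this transition, were absent in APLNR+. GATA1, the erythroid and megakaryocytic factor, was listed at 0, 0 and 13.4 FPKM. SPI1, the myeloid factor PU.1, was at 0.572, 1.12 and 32.04 FPKM, and MYB, needed for definitive blood, at 0.874, 1.78 and 12.6 FPKM. KLF1, an erythroid factor, was at 0.19, 7.39 and 17.9 FPKM. BCL11A, a repressor of fetal globin, fell from 8.89 to 0.864 FPKM. HOXA9 and HLF, factors of blood stem cells, were below 1 FPKM in both libraries.

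Of 19 hematopoietic surface and cytoskeletal genes, 9 rose and none fell, none of the 9 already higher in APLNR+. LAPTM5, a lysosomal protein of blood cells, was at 0.995, 1.302 and 180.4 FPKM, and LCP2, an adaptor of platelet and lymphocyte receptors, at 0.303, 0.192 and 53.96 FPKM. SPN encodes CD43 and had values of 1.06, 0.294 and 11.7 FPKM, and ITGA2B, the gene of CD41, was at 10.2, 3.74 and 60.9 FPKM. PTPRC, the gene of the pan-leukocyte protein CD45, was at 0.0349, 0.032 and 0.00974 FPKM. KIT, the receptor of stem cell factor, was at 5.54, 1.59 and 7.79 FPKM. Of 9 embryonic and fetal globin genes, HBE1 reached 10.6 FPKM and HBG2 9.69 FPKM in CD31+CD34+, and the remaining 7 were below 1 FPKM in both libraries. HBG1 and HBG2 are near-identical, so the split of fragments between them is uncertain. The summed level of the surface genes was 33.97, 33.5 and 379.6 FPKM. The share of CD31+CD34+ cells that were already CD43+ was not measured, and its part in these values was not tested.

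HOX genes were gained from 1 cluster. Of 39 HOX genes, 8 rose, all of them from the HOXB cluster, and the remaining 31 were below 1 FPKM in both BC1 and CD31+CD34+. HOXB3 was at 0.0257, 24.2 and 169.8 FPKM and was at least 1589-fold higher in CD31+CD34+ than in BC1. HOXB2 was at 0.115, 17.02 and 41.96 FPKM, HOXB6 at 0.0362, 22.8 and 34.6 FPKM and HOXB5 at 0, 2.07 and 19.04 FPKM. HOXB4, used to expand blood stem cells, was at 0, 0.573 and 15.3 FPKM and HOXB9 at 0, 2.75 and 14.9 FPKM. Of the 8, HOXB4 and HOXB7 were absent in APLNR+ and the others were already higher there. The sum over the 39 genes was 0.671, 73.96 and 312 FPKM. HOXB3 and HOXB4 overlap in the annotation, so their fragments may be shared.

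Factors of epithelial-mesenchymal transition (EMT), the change from joined epithelium to single migrating cells, were gained early. Of 12 EMT factors and cadherins, 6 rose, all 6 already higher in APLNR+. The zinc finger factors ZEB1 (0.0798, 3.17 and 16.5 FPKM) and ZEB2 (0.0135, 8.92 and 43.3 FPKM) rose in both steps. TWIST1 (0.772, 14.99 and 19.6 FPKM) kept the level of APLNR+, and SNAI1 (2.95, 45.9 and 15.95 FPKM) and SNAI2 (1.08, 32.8 and 13.97 FPKM), direct repressors of E-cadherin, partly returned. CDH11, a mesenchymal cadherin, was at 2.297, 59.1 and 158 FPKM and rose further. CDH2, the gene of N-cadherin, was at 12.8, 45.3 and 10.003 FPKM, so that its level in CD31+CD34+ was again close to that in BC1. CDH3, the gene of P-cadherin, fell from 99.6 to 2.48 FPKM. VIM, the intermediate filament of mesenchymal cells, was at 46.6, 417 and 826 FPKM and LMNA, the gene of lamin A, at 22.1, 55.8 and 109 FPKM. The keratins KRT8 (200.4, 262 and 108 FPKM), KRT18 (180.4, 99.3 and 88.5 FPKM) and KRT19 (79.8, 228 and 45.5 FPKM) did not pass the difference of 2, and KRT7 fell from 8.03 to a listed 0 FPKM.

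The epithelial genes fell in part. Of 26 junction and surface genes, 11 fell and none rose, and 10 of the 11 were already lower in APLNR+. The median net difference was -1.70 over all 26 and -1.71 over the 25 kept. CLDN6, a claudin of pluripotent cells, was at 409, 68.3 and 15.02 FPKM. CLDN3 (11.7, 0.691 and 0.17 FPKM), CLDN4 (18.5, 0.751 and 0.464 FPKM) and CRB3 (12.7, 0.622 and 0.0932 FPKM) are parts of tight junctions and of apical polarity. On the scale with 1 added, they were near their lowest level by APLNR+. Genes of junctions that endothelium also uses did not pass the difference. JUP, plakoglobin, was at 53.6, 59.7 and 128 FPKM, F11R, an adhesion molecule of tight junctions, at 32.7, 16.97 and 43.1 FPKM, and TJP1, the scaffold ZO-1, at 17.7, 10.1 and 15.99 FPKM. CLDN7 was at 46.2, 5.71 and 41.7 FPKM and CLDN10 at 24.4, 6.02 and 26.9 FPKM, both lower in APLNR+ than at either end.

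The regulators of the epithelial program fell as well. Of 17, 11 fell and none rose, and 9 of the 11 were already lower in APLNR+. The median net difference was -2.77 over all 17 and -3.16 over the 16 kept, for which a pseudocount of 0.1 gave -5.07. ESRP1 (37.7, 6.66 and 0.466 FPKM) and ESRP2 (24.6, 8.64 and 0.503 FPKM), the splicing factors of epithelia, fell in both steps. RAB25, a vesicle GTPase of epithelia, was at 27.8, 6.38 and 0.284 FPKM, and AP1M2, a sorting adaptor of epithelia, at 70.2, 21.8 and 1.22 FPKM. PRSS8, a membrane protease, was at 80.9, 60.96 and 0.824 FPKM and so was retained in APLNR+ and lost after it. The transcription factors OVOL2 and GRHL2, which hold cells in an epithelial state, were at 5.84, 1.26 and 0 FPKM and 5.27, 0.324 and 0.366 FPKM.

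Pluripotency genes were lost in different orders. Of 25 factors, 17 fell and none rose, 12 of them already in APLNR+. The median net difference was -3.42 over all 25 and -3.77 over the 24 kept. POU5F1 (chromosome 6, 31164337 to 31180731) was at 1997, 573 and 1.87 FPKM and was 1070-fold (95% interval 792 to 1486) lower in CD31+CD34+ than in BC1, so that a large part of it was still there at day 2. POU5F1 has near-identical copies elsewhere in the genome, which makes its counting uncertain. SOX2 (chromosome 3, 181711924 to 181714436) was listed at 172, 0.766 and 0 FPKM, and was at least 3017-fold lower. NANOG was at 23.6, 0.957 and 0.0345 FPKM and FOXD3 at 46.2, 0.0511 and 0.0234 FPKM. On the scale with 1 added, SOX2, NANOG, FOXD3, UTF1 (23.9, 0.625 and 0 FPKM) and USP44 (61.1, 2.61 and 2.56 FPKM) were by day 2 within 1 of their level in CD31+CD34+. POU5F1, ZFP42 (64.5, 29.6 and 1.64 FPKM) and PRDM14 (28.8, 2.62 and 0.0615 FPKM) fell by 1 or more in both steps. This division depends on the scale, since the FPKM values of SOX2, NANOG and UTF1 also went lower after day 2.

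Other members of the list were absent from the early losses. TDGF1, the Nodal co-receptor Cripto, was at 271, 259.9 and 0.559 FPKM, L1TD1, an RNA-binding protein, at 189.7, 116 and 1.23 FPKM, and ZIC2, a zinc finger factor, at 79.9, 78.9 and 0.77 FPKM. OTX2 (20.5, 82.8 and 1.004 FPKM), which also acts in the anterior embryo, was higher in APLNR+ before it fell. Several members that did not pass the difference of 2 were still at 17 FPKM or more in CD31+CD34+. LIN28A, an RNA-binding protein that blocks let-7, was at 363, 159 and 117 FPKM and LIN28B at 26.2, 28.02 and 19.4 FPKM. SALL4 was at 53.9, 47.6 and 20.7 FPKM, TRIM71 at 68.7, 41.8 and 18.8 FPKM, MYCN at 59.98, 42.5 and 17.5 FPKM and SALL1 at 16.7, 112 and 21.8 FPKM. DPPA2, at 3.57, 0.125 and 0.307 FPKM, was 11.6-fold (95% interval 5.62 to 27.8) lower in CD31+CD34+, and its low level kept it from the difference of 2 on a scale with 1 added. DNMT3B, the de novo methyltransferase of pluripotent cells, fell from 513 to 74.05 FPKM. No other of the 9 DNA methylation enzymes passed the difference of 2.

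The sequence before the start of SOX2 (chr3:181711675-181711924, plus strand, GRCh38.p14), chosen after its value was seen, is shown beside those of TIE1 and PLVAP. It holds 1 ETS core in capitals and 20 CpG dinucleotides. The window of TIE1 holds 1 CpG and that of PLVAP 12. No difference between risen and fallen genes is read from these counts.
SOX2: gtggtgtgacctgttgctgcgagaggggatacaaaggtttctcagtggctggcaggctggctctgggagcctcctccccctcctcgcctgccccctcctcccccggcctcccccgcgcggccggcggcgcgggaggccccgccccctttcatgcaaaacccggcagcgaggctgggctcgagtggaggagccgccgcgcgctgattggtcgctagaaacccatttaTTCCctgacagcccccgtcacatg
These 3 windows were chosen by hand and stand for no group of genes.

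**Figure D4:**
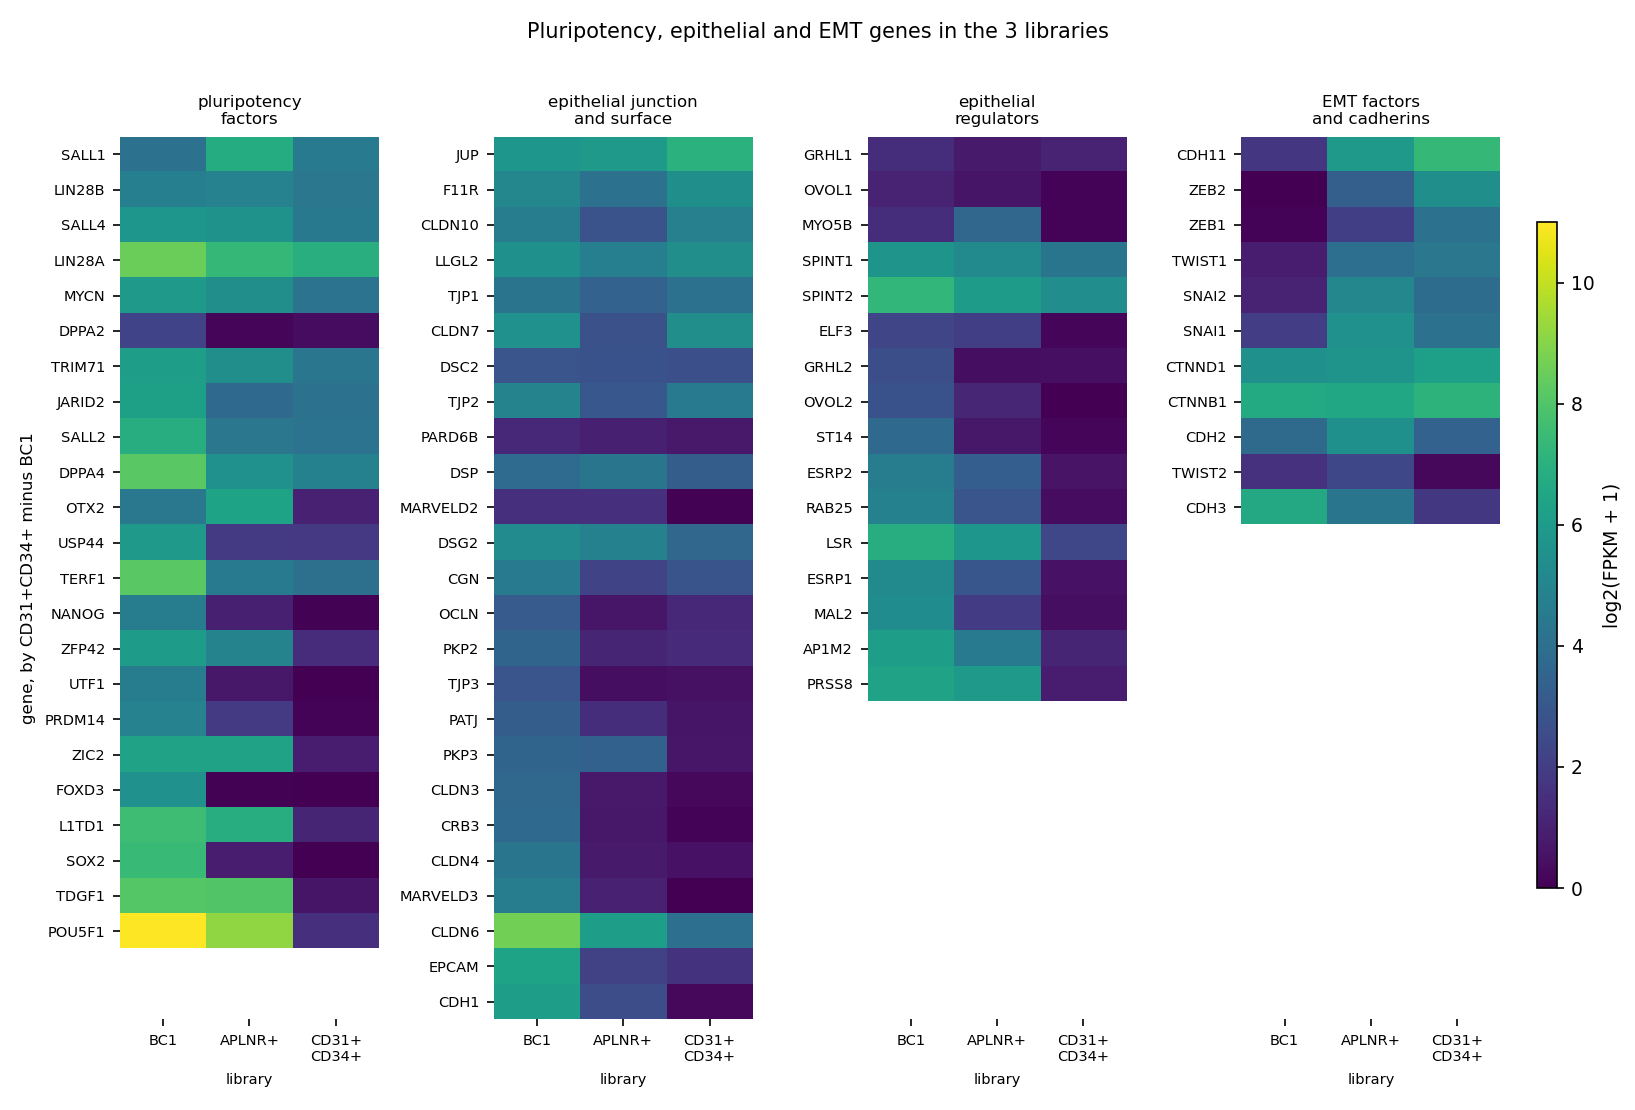
Level of pluripotency, epithelial and EMT genes in BC1, APLNR+ and CD31+CD34+ (columns of each block, 1 library each) as log2(FPKM + 1), for kept members of 4 lists (all but 1 of the pluripotency factors kept), ordered by net difference. SOX2, NANOG and FOXD3 are dark from APLNR+ on, TDGF1, L1TD1 and ZIC2 only in CD31+CD34+, and LIN28A, LIN28B and SALL4 stay bright in all 3 columns.

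Long noncoding RNAs of pluripotent cells were lost too, mostly by day 2. Of 12, 8 fell and none rose, and 7 of the 8 were already lower in APLNR+. The median net difference was -4.61 over the 9 kept members, which passed the filter through BC1, and -7.88 with a pseudocount of 0.1. ESRG, a transcript of undifferentiated cells, was listed at 253, 0.615 and 0 FPKM, and was at least 5683-fold lower in CD31+CD34+ than in BC1. FOXD3-AS1 went from 252 to 2.47 FPKM and LINC00678 from 115 to 0.975 FPKM, and both were listed at 0 FPKM in CD31+CD34+. TUNAR, at 20.2, 13.4 and 0.566 FPKM, was absent from the early losses. FOXD3-AS1 overlaps FOXD3 on the other strand. The counting is not stated to use strand, so the fragments of such a pair cannot be told apart.

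Outside the list, the noncoding gene with the largest fall was AC106864.1 (chromosome 4, 112646476 to 112650051), at 1555, 726 and 2.73 FPKM, a fall of 569.7-fold (95% interval 233 to 2190.5). The annotation marks it as a host of small RNAs, and on its strand it spans the hairpins of 5 miRNAs, those of the miR-302 and miR-367 cluster of pluripotent cells. It lies within LARP7 on the other strand, which was at 21.1, 18.3 and 22.01 FPKM. The 3p arms, from RefSeq (GRCh38.p14), are printed 5′ to 3′ with the seed, bases 2 to 8, in capitals, since 4 of the 5 share it.
hsa-miR-302a-3p: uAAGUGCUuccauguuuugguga
hsa-miR-302b-3p: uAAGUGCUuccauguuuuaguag
hsa-miR-302c-3p: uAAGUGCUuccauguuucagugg
hsa-miR-302d-3p: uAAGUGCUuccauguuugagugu
hsa-miR-367-3p: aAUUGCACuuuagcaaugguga
The 4 miR-302 arms have the seed AAGUGCU and differ in their last bases, and miR-367 has the seed AUUGCAC. Mature miRNAs were not measured in these libraries, and only the host transcript has a value.

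Of 257 changed genes that the lists and the rule for named genes cover, at least 16 spanned a miRNA hairpin on their own strand. HOXB3 and HOXB4 are both among them and span the same hairpin. The share of such hosts over all kept genes was not counted, so nothing is read from this number. Hosts of well-known vascular and HOX miRNAs were among those that rose. EGFL7 spans the hairpin of miR-126, which is known from endothelium, and HOXB3 that of miR-10a. Their mature arms are shown in the same way.
hsa-miR-126-3p: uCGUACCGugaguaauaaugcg
hsa-miR-126-5p: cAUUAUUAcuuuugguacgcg
hsa-miR-10a-5p: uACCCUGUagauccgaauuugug
None of them shares a seed with the miR-302 arms. Among noncoding genes that rose, PCAT14 was at 0.333, 28.1 and 133 FPKM and GATA2-AS1 at 0.0561, 10.9 and 45.5 FPKM. GATA2-AS1 overlaps GATA2 on the other strand, so the same limit applies to this pair.

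Signalling genes were examined by pathway. Of 26 BMP and TGF-beta genes, 9 rose and 1 fell, beside 5.86% risen and 4.51% fallen over all kept genes. The median net difference was 1.47 over all 26 and 1.57 over the 22 kept. SMAD6, an inhibitor of BMP signalling, was at 3.21, 206 and 486 FPKM. The BMP target ID1 was at 108, 49.5 and 636 FPKM and so was lower in APLNR+ than in BC1, and ID2 was at 14.9, 65.6 and 321 FPKM. BMPER, a BMP-binding protein of endothelium, was at 0.317, 144 and 136 FPKM, and the ligand TGFB1 at 4.59, 102 and 357 FPKM. BMP4 partly returned (1.83, 305 and 12.03 FPKM) and BMP7 fell from 7.92 to 0.646 FPKM.

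Of 23 Nodal and FGF genes, 5 fell and 1 rose, beside 4.51% fallen and 5.86% risen over all kept genes. The median net difference was -0.82 over all 23 and -1.06 over the 20 kept. NODAL was at 5.76, 1.41 and 0.0306 FPKM, its antagonist LEFTY1 at 17.9, 4.27 and 0.962 FPKM, FGF2 at 55.9, 23.7 and 10.7 FPKM and FGFR2 at 26.5, 20.8 and 2.19 FPKM. The member that rose was SPRY1, an inhibitor of FGF and VEGF signalling, at 19.7, 20.3 and 136 FPKM. CER1, a Nodal antagonist of endoderm, was at 2.496, 2991 and 0.0905 FPKM, and its net difference of -1.68 does not show the level that it had at day 2.

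Of 30 Wnt genes, 5 rose and 2 fell, beside 5.86% risen and 4.51% fallen over all kept genes. The median net difference was 0.24 over all 30 and 0.40 over the 25 kept. SP5, a target of Wnt signalling, was at 0.258, 55.6 and 61.4 FPKM and LEF1, a nuclear effector, at 0.111, 8.201 and 9.92 FPKM, both at their higher level from APLNR+ on. WNT11 was at 0.122, 0.615 and 46.6 FPKM, and its gain was absent in APLNR+. The antagonist SFRP2 fell from 244 to 5.12 FPKM, and the receptor FZD7, at 92.6, 244 and 7.703 FPKM, was higher in APLNR+ before it fell.

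Lists of general functions had median net differences near 0, with -0.16 over 22 glycolysis genes and -0.11 over 15 genes of MHC class I presentation. Their counts of changed genes are small and stand beside 5.86% risen and 4.51% fallen over all kept genes, so nothing is read from them. Of 25 cell cycle genes, 3 rose and none fell: CDKN1A (12.6, 23.7 and 228 FPKM) and CDKN1C (2.52, 6.72 and 36.3 FPKM), inhibitors of cyclin-dependent kinases, and the cyclin CCND3 (18.2, 56.1 and 129 FPKM). MKI67, a marker of cycling cells, was at 13.3, 19.5 and 40.2 FPKM. Of 22 glycolysis genes, the lactate exporter SLC16A3 rose (7.78, 63.8 and 375 FPKM) and the glucose transporter SLC2A1 fell (260.03, 70.02 and 54.6 FPKM). Of the MHC class I genes, HLA-E rose (10.1, 14.7 and 159.8 FPKM) and the proteasome subunit PSMB10 fell (25.6, 17.1 and 5.29 FPKM), and B2M was at 93.9, 172 and 308 FPKM. Of 20 ubiquitously expressed genes, the transferrin receptor TFRC fell (34.3, 34.4 and 4.61 FPKM) and none rose, with a median net difference of -0.19.

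**Figure D5:**
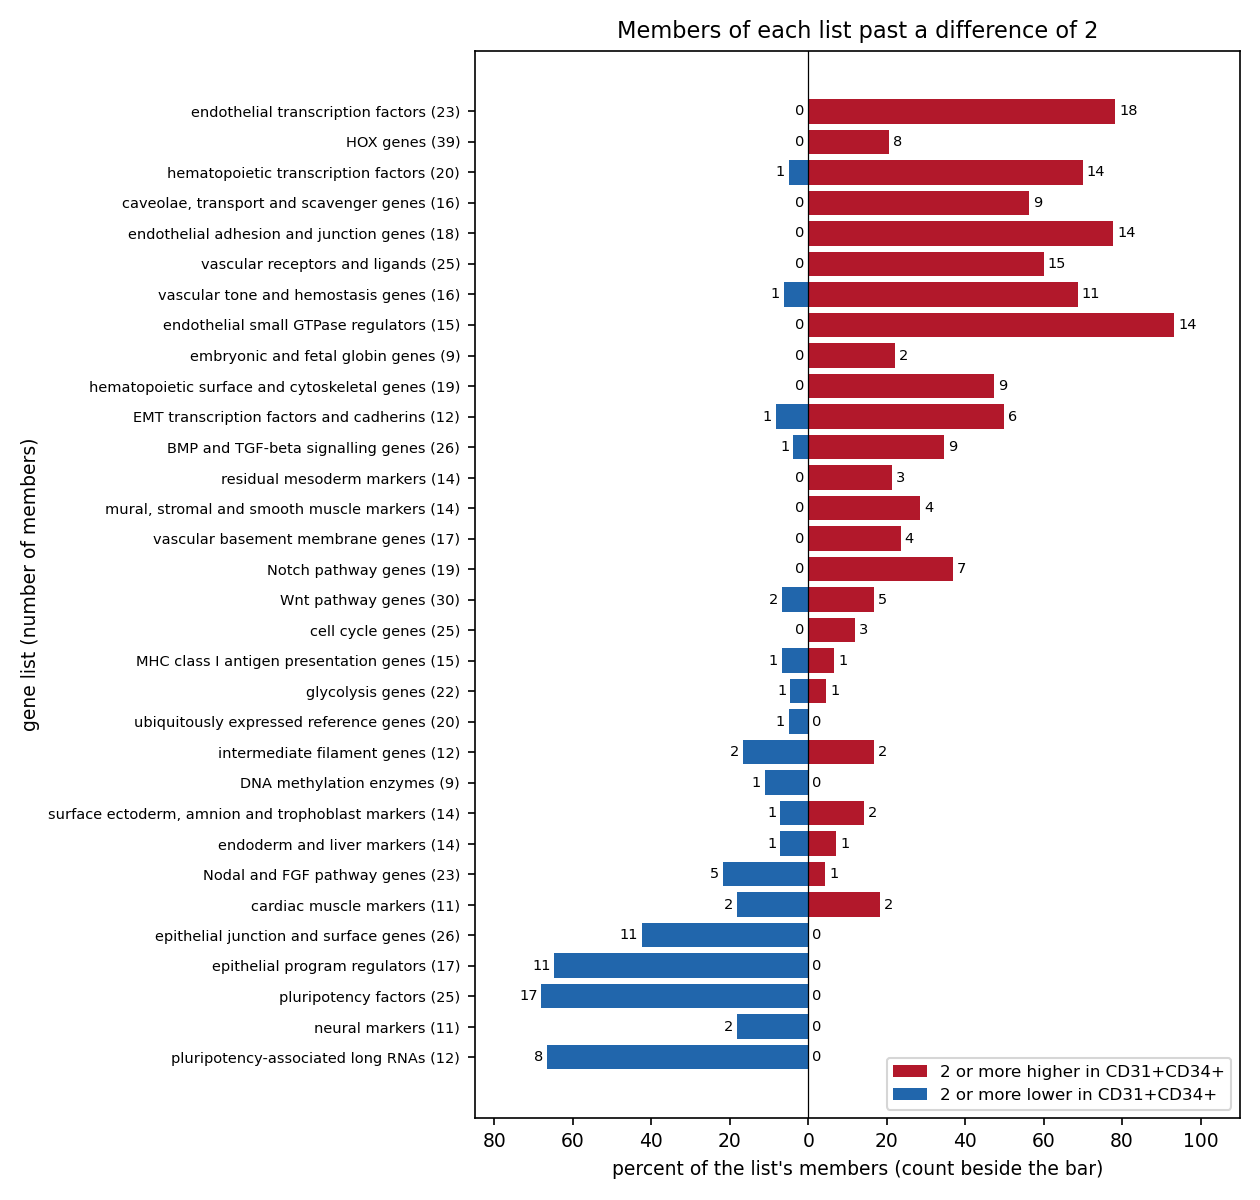
Members of each of the 32 gene lists that rose (red, to the right) or fell (blue, to the left) by 2 or more from BC1 to CD31+CD34+, as percent of all members of the list, with the count beside each bar and the number of members in parentheses. Vascular and hematopoietic lists lie at the top with red bars, pluripotency and epithelial lists at the bottom with blue bars, and the cell cycle, glycolysis and reference lists have 3, 2 and 1 changed members.

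Genes chosen for size and not from a list widen this account. Among protein-coding genes with 10 FPKM or more that rose and were already higher in APLNR+, HAPLN1, which links hyaluronan to matrix proteoglycans, was at 0.606, 75.4 and 437 FPKM. GAD1, the enzyme that makes GABA in neurons, was at 0.171, 4.21 and 317 FPKM and was at least 788-fold higher in CD31+CD34+ than in BC1. F2RL2, a thrombin receptor, was at 0.0447, 1.75 and 221 FPKM. Among those absent in APLNR+ were SOST, the bone Wnt antagonist sclerostin (0.0498, 0.0915 and 154 FPKM), FCN3, a lectin of the complement system (0.413, 0.254 and 192 FPKM), and SAMSN1, an adaptor of blood cells (0.0791, 0.0573 and 128 FPKM).

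Among fallen genes, CRABP1, a retinoic acid binding protein, was at 281, 51.8 and 0.601 FPKM, KIF1A, a neuronal kinesin, at 123, 25.6 and 0.684 FPKM and RAB17, an epithelial GTPase, at 72.2, 4.33 and 0.246 FPKM, all already lower in APLNR+. DMKN (228, 149.8 and 4.096 FPKM) and the amino acid transporter SLC7A5 (147, 181 and 4.497 FPKM) were absent from the early losses. Genes that went through an opposite value included DYSF, a membrane repair protein (3.82, 1.05 and 68.6 FPKM), and NRROS, a protein that anchors TGF-beta (1.87, 0.263 and 39.9 FPKM), which rose. SOCS1, an inhibitor of cytokine signalling (27.4, 135 and 2.82 FPKM), GPR157 (15.01, 32.3 and 1.003 FPKM) and SHISA9 (16.4, 40.2 and 0 FPKM) were higher in APLNR+ before they fell.

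The comparison of the ends misses changes that had come and gone. Of the kept genes whose net difference was below 1 in size, 62 were at least 2 higher in APLNR+ than in both other libraries and 28 at least 2 lower. The filter leaves out genes under 1 FPKM at both ends, and without it 152 were higher and 28 lower. The higher ones included BMP2 (0.912, 287 and 1.25 FPKM), WNT5A (0.876, 159.5 and 1.41 FPKM), and MESP1, a factor of early mesoderm (0.0963, 96.8 and 1.05 FPKM). MYL7, an atrial myosin light chain, was at 0.971, 51.7 and 1.39 FPKM. Lower in APLNR+ than at either end were DUSP6, a feedback inhibitor of ERK signalling (71.1, 6.64 and 39.7 FPKM), the Notch-modifying enzyme LFNG (18.9, 1.72 and 31.8 FPKM), FGFBP3 (56.9, 3.61 and 81.4 FPKM) and IQGAP2 (19.7, 1.41 and 16.5 FPKM).

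Markers of other cell types that the CD31+CD34+ gate could hold were measured beside these results. The counts of these lists stand beside 5.86% risen and 4.51% fallen over all kept genes. Of 14 residual mesoderm markers, FOXF1, LHX1 and HAND1 rose, and the list summed to 11.7, 1489 and 39.3 FPKM, higher in CD31+CD34+ than in BC1. The median net difference was 0.78 over all 14 and 1.33 over the 9 kept. Other members, MIXL1 (0.931, 474 and 0.982 FPKM), EOMES (0.244, 205 and 0.28 FPKM) and GSC (0.303, 111 and 0 FPKM), were below 1 FPKM in both BC1 and CD31+CD34+ and were not kept. Of 14 mural, stromal and smooth muscle markers, ACTA2 (3.09, 2.19 and 48.3 FPKM), COL1A1 (26.05, 22.9 and 184 FPKM), COL1A2 (20.9, 64.99 and 207 FPKM) and COL3A1 (0.309, 0.825 and 8.94 FPKM) rose, and the list summed to 201 FPKM in BC1 and 550.4 FPKM in CD31+CD34+. PDGFRB, which defines pericytes, was at 5.67, 5.503 and 6.69 FPKM, CSPG4 at 1.47, 1.83 and 1.37 FPKM, and LUM, DCN, MYH11, DES and POSTN were below 1 FPKM in both libraries. RGS5, which is also known from pericytes, rose (41.4, 12.3 and 393 FPKM). It is counted above with the GTPase and G protein genes and is not in this list or its sum. These values stand beside the rise of the basement membrane and EMT genes, and their part in it was not tested.

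Of 11 cardiac muscle markers, NKX2-5 (0.035, 9.77 and 69.2 FPKM), a factor of heart and of its endothelium, and MYL4 (0, 14.5 and 26.3 FPKM) rose, while TNNT2 (22.5, 1.205 and 0.178 FPKM) and TNNI3 (27.9, 4.5005 and 2.87 FPKM) fell. MYH6, MYH7, MYL2 and NPPA were below 1 FPKM in both libraries. Of 14 endoderm and liver markers, SOX17 rose and AFP fell from 11.5 to 0.188 FPKM. Beside 5.86% risen and 4.51% fallen over all kept genes, nothing is read from these 2 counts. The list summed to 274.5, 3628.4 and 114.6 FPKM, highest in APLNR+. The part of endoderm cells in the APLNR+ library, and so in the classes set against it, was not tested. ALB was at 23.5, 56.3 and 18.03 FPKM and APOA2 at 193, 470.05 and 65.3 FPKM, so liver genes were measurable in undifferentiated cells too. Of 11 neural markers, SOX3 (40.02, 0.0747 and 0 FPKM) and TUBB3 (275, 108 and 36.04 FPKM) fell, and the others were below 1 FPKM in both libraries. Of 14 markers of surface ectoderm, amnion and trophoblast, GATA3 (0.431, 30.01 and 40.1 FPKM) and TFAP2A (0.0311, 1.85 and 3.395 FPKM) rose and KRT7 fell, with TP63, CDX2, KRT5 and KRT14 below 1 FPKM in both. GATA3 is also known from mesoderm and blood, and the part of other cells in its value was not tested.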

How the data were processed

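Libraries for RNA-seq were prepared from total RNA (TruSeq RNA Sample Prep Kit, Illumina). The authors deposited 1 table of gene-level FPKM values. Neither the file nor the study's methods name the unit in words, and it was inferred from the values and from an axis label in the study. The submitters' processing notes list BWA, Bowtie and RSEM and the build hg19, with no role or order given. The positions in the file were those of GENCODE release 29 on GRCh38 (start and end equal for 55603 of 55605 identifiers of the same version), so positions are given on GRCh38. Whether counting used strand is not given in the sources used here. The columns were assigned to populations by name, and 0 columns of values were left unused.

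Of 58365 rows, those of 1 identifier were summed. Values were analysed as log2(FPKM + 1). Depth was recovered from the steps between low values of genes with a single transcript of 1000 bases or more: FPKM times transcript length (less 260 or 280 bases) times mapped fragments gave a whole number, within 0.1, for 84.2% to 86.0% of them. Fold intervals were exact Clopper-Pearson intervals at 95%, with a floor of 3 fragments. Count models were not applied, as the file holds no counts and each population had 1 library. The scripts were checked on simulated data. The comparison, its classes and the 32 gene lists (588 entries) were chosen with earlier results of these data known, so their counts are no independent evidence. Named genes were cell type markers, up to 4 members of each list with the largest rise or fall and those of a differing class, the 6 protein-coding genes of 10 FPKM or more with the largest difference in each class and with the largest excursion in APLNR+, genes just inside and outside the difference of 2, and 5 noncoding genes in each direction. Other list members are given to fill out each list's account, and a few members that count in their lists are not reported here by name. Promoter and miRNA sequences came from RefSeq tables for GRCh38.p14. The gene symbol MIR302CHG of the lists was not found in the table, and AC106864.1 was matched to the miR-302 hairpins by position. Alternatives were other pseudocounts, filters, scalings, gene sets, limits and differences. Analyses used Python 3.11.15, pandas 2.3.3, NumPy 2.4.6, SciPy 1.17.1 and matplotlib 3.10.9.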

Additional observations from a re-analysis of the deposited data

How the results depend on the processing

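With 1 library per population no alternative has a test, and a count is said to have moved when it changed by more than 1.5 times. No paired analysis was possible because each population had 1 library. A pseudocount of 0.1 raised the counts, since it gives low values more weight: 1637 genes rose and 1582 fell, 781 risen genes were already higher in APLNR+ and 114 opposite, 1057 fallen genes were already lower, 455 absent and 70 opposite, and 133 genes level at both ends were lower in APLNR+. The share of changed genes that rose was then 50.9%, against 56.5%. A difference of 1 gave 2845 risen and 2442 fallen genes, and a difference of 3 gave 404 and 280. With a limit of 0.5 for APLNR+, 364 risen genes were absent and 84 opposite, and 100 fallen genes absent and 34 opposite. With a limit of 2, 163 risen genes were already present and 6 opposite, and 282 fallen genes were already present, 432 absent and 3 opposite. With a filter of 5 FPKM, 21 genes level at both ends were higher in APLNR+, and with no filter 152. With no filter 4 lists had a median of -1 or lower, and by means 5, against 8. Of protein-coding genes alone, 11 fell after an opposite value. List medians over kept members also moved with a pseudocount of 0.1, which gave 5.58 for hematopoietic transcription factors and -5.07 for epithelial regulators. With no filter the medians of the HOX and globin lists were near 0. The split of early changes into kept and further turned over with the limit and the pseudocount. The cardiac list had a median of -1.25 and a mean of 0.10. Rescaling by total or by median ratio and leaving out mitochondrial genes moved none of these counts. Genes under about 1 FPKM rest on few fragments, and spread between cultures or sorts was not measured.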
